A study of Mus musculus with 6 samples.

Results

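Astrocyte and Bergmann glia genes are a set of 31 genes that mark or work in the astroglia of the cerebellum, and they were followed in cultured cerebellar granule cells (GCs) after knockdown (KD) of YTHDF2. The members were listed by name and found by symbol in the GRCm38 annotation. All 31 were among the 53421 genes of the count table, and 29 of them were among the 17214 genes that passed the filter on low counts. Astrocytes are the support cells of the brain, which clear transmitters and potassium, hold water channels at blood vessels and feed neurons. Bergmann glia are the astroglia of the cerebellar cortex, whose long fibers guide migrating GCs and later wrap the synapses on Purkinje cells. YTHDF2 is a reader protein that binds m6A-modified mRNAs and promotes their decay.

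All libraries came from dissociated cerebellar GCs of C57BL/6 mice, which the labels give as postnatal day 8. The cells received lentivirus for either shYthdf2, a short hairpin RNA that targets Ythdf2 (hairpin number 3 by the library names, 3 libraries), or shCtrl, the control hairpin (3 libraries), followed by puromycin selection. Replicates are numbered 1, 2 and 4 in both groups. The methods describe removal of the meninges and trypsin dissociation and name no sort, so the 6 libraries are bulk RNA in which glia can take part, and 1 hairpin stands for the KD.

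The labels contradict each other about the groups. The sample titles and the genotype field call the 3 libraries named for the Ythdf2 hairpin wild type, whereas the library names and the hairpin numbers in the methods call them the KD, and the names were followed. If the titles are right, all directions given here turn round. Ythdf2 itself had 501, 403 and 501 normalized counts in shYthdf2 replicates 1, 2 and 4 and 619, 841 and 629 in the matching shCtrl replicates. It was thus lower in shYthdf2 without overlap of the groups, as were 13.4% of all genes tested. Its log2 fold change was -0.57 (SE 0.16) and did not pass the threshold (edgeR adjusted p = 0.125). Normalized counts are counts scaled by the trimmed mean of M-values (TMM) to the mean library size.

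Replicate 2 stood apart from replicates 1 and 4 in both groups. Over all genes, the chi-square per degree of freedom between libraries of a group was 3.38 and 4.75 for replicates 1 and 4, and 33.7 to 56.2 where replicate 2 was 1 of the pair. The libraries held 17246821 to 21546595 counts. The 16 GC markers, which include genes of neurons in general such as Tubb3, Map2 and Snap25, were present throughout. Their summed level was 12941 to 13880 counts-per-million (CPM), against 1133 to 1776 CPM for the 31 astroglial genes. Sums over different genes do not give the shares of cell types. Counts of genes and the differences of the tested members are therefore also given without replicate 2.

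The astroglial genes were mostly higher in shYthdf2 in replicates 1 and 4 and not in replicate 2. Their summed level was 1659, 1655 and 1658 CPM in shYthdf2 replicates 1, 2 and 4, and 1143, 1776 and 1133 CPM in the matching shCtrl replicates. The sums of the 3 shYthdf2 libraries were nearly equal (1657 ± 1.68, SD, n = 3). The shCtrl sums spread widely (1351 ± 369, SD, n = 3), and shCtrl replicate 2 lay above all other libraries. Parts of the shYthdf2 sum did differ between replicates 1, 2 and 4. Secreted and matrix genes summed to 317, 418 and 321 CPM, and channels, junctions and transporters to 427, 364 and 419 CPM. In bulk RNA, more cells of a type and more RNA per cell cannot be told apart. Within replicate 1, 23 of the 29 tested genes were higher in shYthdf2, with a median log2 difference of 0.66. Within replicate 4, 21 were higher, with a median of 0.66. Within replicate 2, 10 were higher and 19 lower, with a median of -0.10, while the median of all genes tested was close to 0 within each replicate.

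In the test over all 6 libraries, 0 of the 29 genes passed an adjusted p of 0.05 (Benjamini-Hochberg) in the quasi-likelihood test of edgeR, where 0.604% of all genes tested passed, 0.244% as higher and 0.36% as lower. At an unadjusted p under 0.05, 3 members were higher (Aqp4, Acsbg1 and Tnc, 10.3% of the members against 9.5% of all genes) and 1 was lower (Lcn2, against 10.6% of all genes). In log2 fold change, 21 members were above 0 and 8 below, with a median of 0.27 against 0.01 for all genes. The groups did not overlap for 4 higher members (Nes, Aqp4, Aldoc and Acsbg1, where 12.6% of all genes did so) and 2 lower ones (Glul and Lcn2, where 13.4% did so). DESeq2 passed 1 member as higher (Aqp4, against 3.13% of all genes) and 1 as lower (Lcn2, against 4.54%), and limma-voom passed 0. With the replicate number as a block, 1 member passed as higher (Sparc, against 0.529% of all genes) and 0 as lower (against 0.819%).

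Without replicate 2 in both groups, 19 members passed as higher, where 25.8% of all genes did, and 2 passed as lower (Glul and Lcn2), where 27.0% did. The median log2 fold change was then 0.65. That fit has 2 libraries a group, and its spread is that between replicates 1 and 4, which lay close together. Leaving out shCtrl replicate 2 alone gave 16 higher members (9.42% of all genes) and 0 lower (8.84%), with a median of 0.68. Leaving out any other single library gave 0 members in either direction. In those fits 0 of all genes passed as well, except without shYthdf2 replicate 2, where 829 of 17654 did. A fit that passes 0 of all genes says nothing particular about the members. A term for replicate 2 passed 4 members as higher (Aqp4, Aldoc, Acsbg1 and Sparc, against 10.4% of all genes) and 1 as lower (Glul, against 11.6%).

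**Figure D1:**
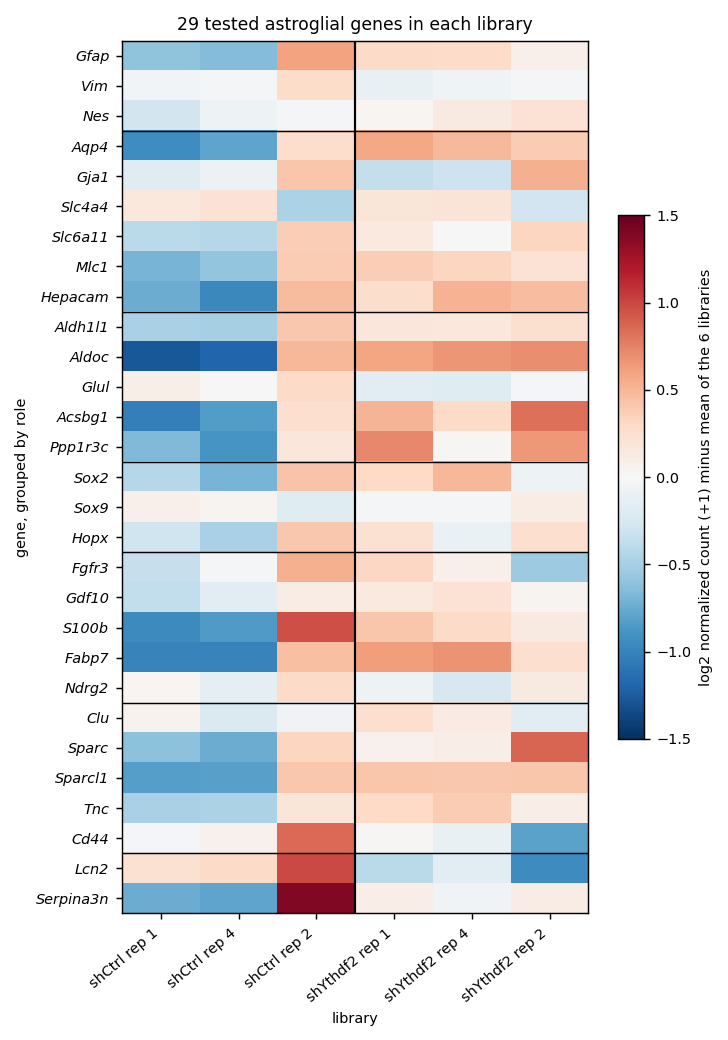
Heat map of the 29 tested astroglial genes (rows, grouped by role) in the 6 libraries (columns), as log2 of the normalized count plus 1 minus the mean of the gene over the 6 libraries. The shCtrl replicates 1 and 4 are mostly blue (low), and shCtrl replicate 2 is mostly red (high), like the shYthdf2 libraries.

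By size, 15 of the 29 members were at least 1.5-fold higher in shYthdf2 in both replicates 1 and 4 (51.7%, against 12% of all genes). They were Gfap, Aqp4, Mlc1, Hepacam, Aldh1l1, Aldoc, Acsbg1, Ppp1r3c, Sox2, S100b, Fabp7, Sparc, Sparcl1, Tnc and Serpina3n. In replicate 2, 1 member was at least 1.5-fold higher (Acsbg1, against 10.9% of all genes), and 5 were at least 1.5-fold lower (Fgfr3, S100b, Cd44, Lcn2 and Serpina3n, against 7.34%). None was at least 1.5-fold lower in both replicates 1 and 4, where 7.12% of all genes were. The shCtrl replicate 2 library was at least 1.5-fold above both other shCtrl libraries for 19 members (65.5%, against 11.7% of all genes). The same held within shYthdf2 for 2 members, Gja1 and Sparc (6.9%, against 6.22% of all genes).

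**Figure D2:**
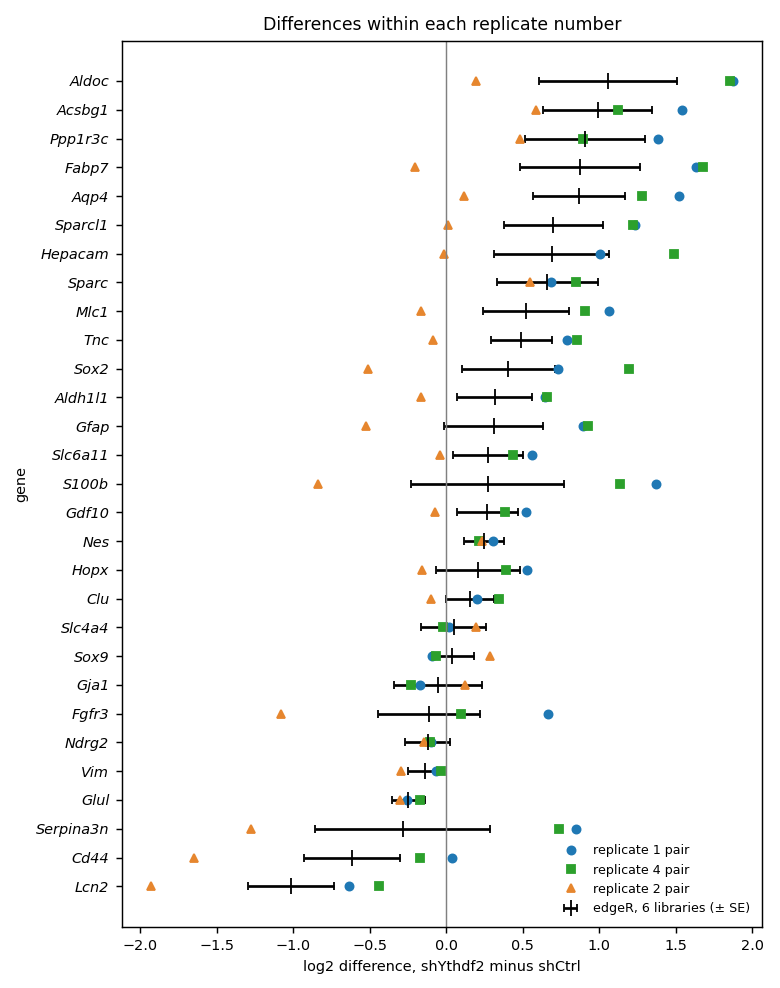
Log2 difference (shYthdf2 minus shCtrl, horizontal axis) of the 29 tested genes (vertical axis) within replicates 1, 2 and 4 (symbols) and in the edgeR fit of all 6 libraries (black bar with its SE). The symbols of replicates 1 and 4 lie together for most genes, and that of replicate 2 lies to their left for the genes at the top, for Aldoc at a ratio of 1.14 against 3.67 and 3.62.

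The upstream sequences of 4 members are shown because they had the largest differences among those with a sequence (Aldoc, Acsbg1 and Fabp7 upward, Lcn2 downward) and at least 100 normalized counts in a group. Each run is the 250 bases before the start of the gene in RefSeq (GRCm38.p6), 5′ to 3′ on the strand of the gene. Capitals mark TTGGC on either strand, the short site of nuclear factor I, which acts in astrocyte development, or TTCNNNGAA, the site of STAT factors, which act downstream of gp130 cytokines. The Acsbg1 run is chr9:54661886-54662135 (minus strand), that of Aldoc is chr11:78322823-78323072 (plus), that of Fabp7 is chr10:57784673-57784922 (plus) and that of Lcn2 is chr2:32387740-32387989 (minus).
Aldoc: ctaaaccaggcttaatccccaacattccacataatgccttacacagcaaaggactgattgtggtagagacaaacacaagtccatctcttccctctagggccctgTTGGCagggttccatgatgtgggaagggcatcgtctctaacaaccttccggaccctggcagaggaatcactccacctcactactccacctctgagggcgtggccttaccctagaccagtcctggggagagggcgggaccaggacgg
Acsbg1: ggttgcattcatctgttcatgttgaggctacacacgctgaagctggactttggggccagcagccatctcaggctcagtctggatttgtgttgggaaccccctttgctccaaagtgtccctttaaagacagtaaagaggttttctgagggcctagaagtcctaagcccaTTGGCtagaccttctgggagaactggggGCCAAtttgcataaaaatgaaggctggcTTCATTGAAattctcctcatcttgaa
Fabp7: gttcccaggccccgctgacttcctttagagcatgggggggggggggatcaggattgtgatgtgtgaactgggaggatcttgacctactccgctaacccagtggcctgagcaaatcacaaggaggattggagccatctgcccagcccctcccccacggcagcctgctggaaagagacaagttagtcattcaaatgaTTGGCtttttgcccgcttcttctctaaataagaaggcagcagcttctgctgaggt
Lcn2: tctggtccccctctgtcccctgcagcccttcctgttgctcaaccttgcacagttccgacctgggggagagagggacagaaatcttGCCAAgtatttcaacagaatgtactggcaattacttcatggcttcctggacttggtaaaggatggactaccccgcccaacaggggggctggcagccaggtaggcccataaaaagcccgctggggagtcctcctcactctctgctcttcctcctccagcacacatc
The nuclear factor I letters began 146 bases before the start in Aldoc, 82 and 54 in Acsbg1, 55 in Fabp7 and 165 in Lcn2, and the STAT letters began 26 bases before the start in Acsbg1. Upstream sequences were found for 27 of the 31 members. Of these 27, 15 held TTGGC on either strand (55.6%, against 41.9% of 27025 promoters of the same length), and 2 held TTCNNNGAA (7.41% against 7.18%). TATAAA was in 3 (11.1% against 13%), and ACAATG, the core of the SOX site, was in 0 (against 11%). The 4 motifs were searched on both strands, and a match describes letters only.

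Among the intermediate filament genes, Gfap, the defining filament of astrocytes, had 4578, 3942 and 4532 normalized counts in shYthdf2 replicates 1, 2 and 4. In shCtrl it had 2469, 5667 and 2389. The groups overlapped because shCtrl replicate 2 was the highest of all libraries, and the ratio was 1.85 and 1.90 in replicates 1 and 4 and 0.696 in replicate 2. The log2 fold change of Gfap was 0.31 (SE 0.32, edgeR adjusted p = 0.635), and without replicate 2 it was 0.90 (edgeR adjusted p = 2.45e-11). Vim, the vimentin of immature glia and many mesenchymal cells, had 3102, 3317 and 3202 in shYthdf2 and 3253, 4066 and 3277 in shCtrl. Nes, the nestin of neural progenitors and immature glia, had 384, 440 and 414 against 311, 374 and 357. Nes was higher in shYthdf2 within each replicate, by 1.16-fold to 1.24-fold, with a log2 fold change of 0.25 (SE 0.13, edgeR adjusted p = 0.335). Without replicate 2, Nes was at 0.26 (edgeR adjusted p = 0.0313) and Vim at -0.06 (edgeR adjusted p = 0.199) on the same scale.

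Of the 7 genes of channels, junctions and transporters, 6 were tested, and 5 of these had a log2 fold change above 0. Aqp4, the water channel of astrocyte endfeet, had 2423, 2102 and 2269 normalized counts in shYthdf2 and 845, 1941 and 933 in shCtrl. All shYthdf2 libraries lay above all shCtrl libraries, with shCtrl replicate 2 close below. The log2 fold change of Aqp4 was 0.87 (SE 0.30, edgeR adjusted p = 0.173, higher in 3 of 3 replicates). Without overlap, the exact two-sided permutation test can only give p = 0.1, the smallest that 3 against 3 allows. The same p of that test holds for Nes, Aldoc, Acsbg1, Glul and Lcn2. The adjusted p of Aqp4 ranged from 1.66e-11 to 0.461 over the 15 alternatives and was 0.0487 with DESeq2, and without replicate 2 the log2 fold change was 1.40.

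Mlc1 and Hepacam, which encode partner membrane proteins of astrocyte junctions, had a like pattern. Mlc1 had 560, 505 and 542 in shYthdf2 against 267, 566 and 288 in shCtrl, and Hepacam had 158, 181 and 190 against 78.1, 183 and 67.1. Both were near equal in the 2 replicate 2 libraries, at ratios of 0.893 and 0.99, and at 1.88-fold to 2.83-fold in the others. Slc6a11, the astrocytic GABA transporter GAT-3, had 757, 852 and 683 against 513, 878 and 505, with the same 2 shCtrl libraries low. Without replicate 2, the log2 fold changes of these 3 genes were 0.99, 1.25 and 0.50, and each passed (edgeR adjusted p = 1.07e-07, 1.2e-05 and 4.34e-05).

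Slc4a4, a sodium bicarbonate cotransporter, had 4035, 2927 and 4077 in shYthdf2 and 3980, 2558 and 4141 in shCtrl. It was low in replicate 2 of both groups and near equal between groups. Gja1, the gap junction protein connexin 43, was highest in replicate 2 of both groups, with 177, 330 and 183 against 200, 302 and 214. That is a log2 fold change of -0.05 (SE 0.29). Without replicate 2, Gja1 was at -0.21 and Slc4a4 at -0.01, and neither passed (edgeR adjusted p = 0.164 and 0.91). Gjb6, connexin 30, failed the filter, with 1, 4 and 4 raw counts in shYthdf2 and 1, 5 and 1 in shCtrl, which is too few to show a difference at this depth.

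The metabolic enzymes had the highest median log2 fold change among the role groups, 0.91 over 5 genes, and 1.22 without replicate 2. Aldoc, the brain aldolase of glycolysis and a marker of astrocytes and some Purkinje cells, had 991, 1062 and 1039 normalized counts in shYthdf2 and 270, 929 and 287 in shCtrl. The shYthdf2 libraries were all above the shCtrl libraries, 2 of which were far below the rest. Its log2 fold change was 1.06 (SE 0.45, edgeR adjusted p = 0.249), and it was 1.86 without replicate 2 (edgeR adjusted p = 2.02e-11). Acsbg1, an acyl-CoA synthetase of glia, had 198, 247 and 169 against 67.5, 165 and 77.0. It was higher in 3 of 3 replicates and the member with the largest ratio in replicate 2 (1.5), with a log2 fold change of 0.99 (SE 0.36, edgeR adjusted p = 0.187) and 1.34 without replicate 2 (edgeR adjusted p = 4.38e-06).

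Ppp1r3c, a glycogen-targeting subunit of protein phosphatase 1, had the lowest level per length of the enzyme genes and was also higher in 3 of 3 replicates. It had 38.7, 36.9 and 23.4 normalized counts in shYthdf2 and 14.2, 26.2 and 12.1 in shCtrl, and the groups overlapped. Aldh1l1, the folate enzyme used as a general astrocyte marker, had 578, 609 and 577 against 368, 684 and 365. It was 1.57-fold and 1.58-fold higher in replicates 1 and 4 and at a ratio of 0.89 in replicate 2. Glul, glutamine synthetase, which converts transmitter glutamate to glutamine, had 1909, 2111 and 1881 against 2279, 2606 and 2124. Glul was lower in shYthdf2 in 3 of 3 replicates without overlap, unlike the other 4 enzyme genes, with a log2 fold change of -0.25 (SE 0.11, edgeR adjusted p = 0.259). Without replicate 2, Ppp1r3c (1.22), Aldh1l1 (0.65) and Glul (-0.22) each passed (edgeR adjusted p = 0.0118, 3.2e-06 and 0.000388).

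**Figure D3:**
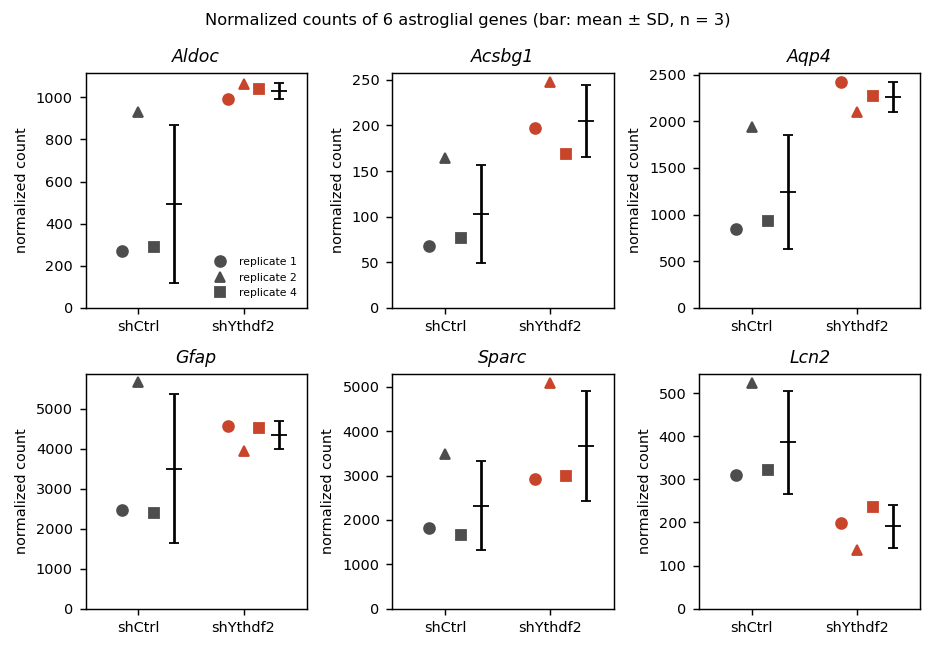
Normalized counts (vertical axes, from 0) of Aldoc, Acsbg1, Aqp4, Gfap, Sparc and Lcn2 in shCtrl (grey) and shYthdf2 (red), with a symbol for each replicate and a bar for the mean and SD of the 3 libraries. In shCtrl, replicate 2 is the highest library for all 6 genes.

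Of the 3 transcriptional regulators, Sox2, a factor of neural stem cells and glia, had 358, 276 and 411 normalized counts in shYthdf2 and 216, 393 and 179 in shCtrl. It was thus 1.66-fold and 2.29-fold higher in replicates 1 and 4 and at a ratio of 0.702 in replicate 2. Sox9, the nuclear factor that specifies astrocytes, was flat, with 264, 287 and 261 against 281, 236 and 274. That gave a log2 fold change of 0.04 (SE 0.14). Hopx, a homeodomain cofactor of Bergmann glia and other radial glia, had 131, 133 and 104 against 90.5, 148 and 79.2, again with shCtrl replicates 1 and 4 low. Without replicate 2, Sox2 (0.95) and Hopx (0.46) passed and Sox9 (-0.09) did not (edgeR adjusted p = 5.47e-06, 0.0366 and 0.501).

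Among receptors, ligands and small binding proteins, Fabp7, the brain fatty acid binding protein of Bergmann glia and radial glia, had the highest level per length of all members. It had 3045, 2332 and 3146 normalized counts in shYthdf2 and 980, 2687 and 981 in shCtrl. The ratio was 3.11 and 3.21 in replicates 1 and 4 and 0.868 in replicate 2, and the groups overlapped through shCtrl replicate 2. The log2 fold change of Fabp7 was 0.87 (SE 0.39, edgeR adjusted p = 0.266), and it was 1.65 without replicate 2 (edgeR adjusted p = 8.07e-14).

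S100b, a calcium-binding protein of astrocytes and Bergmann glia, had 210, 173 and 192 against 80.8, 309 and 86.9. The direction turned between replicates, at 2.60-fold and 2.21-fold in replicates 1 and 4 and a ratio of 0.558 in replicate 2. The log2 fold change of 0.27 (SE 0.50) became 1.26 without replicate 2 (edgeR adjusted p = 3.46e-06). The span of S100b overlaps that of Dip2a on the other strand without shared exon bases, and Dip2a had up to 3473 counts in a library. Whether the counting used strand is not given in the sources used here. Genes of the count table that overlap other members had at most 52 counts in a library. AC133525.2, which overlaps the span of Aqp4 on the other strand without shared exon bases, is absent from the count table.

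Fgfr3, a receptor for fibroblast growth factors, had 76.4, 41.7 and 64.8 in shYthdf2 and 47.9, 89.2 and 60.5 in shCtrl. Gdf10, a Bergmann glia ligand of the TGF-beta family, had 120, 112 and 126 against 83.4, 117 and 96.7. Ndrg2, an astrocyte protein of the hydrolase-fold NDRG family, had 998, 1155 and 890 against 1071, 1280 and 961. The groups overlapped for all 3, and only Ndrg2 was on the same side of 1 in each replicate, with ratios of 0.902 to 0.932. Without replicate 2, Gdf10 passed at 0.45 (edgeR adjusted p = 0.0257), whereas Fgfr3 at 0.39 and Ndrg2 at -0.11 did not (edgeR adjusted p = 0.136 and 0.196). Ntsr2, the neurotensin receptor of astrocytes, failed the filter with 4, 3 and 3 raw counts in shYthdf2 and 5, 3 and 8 in shCtrl.

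Of the 5 secreted and matrix genes, 4 had a log2 fold change above 0. Sparc, a matrix protein made by glia, endothelium and fibroblasts, had 2920, 5096 and 2998 normalized counts in shYthdf2 and 1815, 3485 and 1668 in shCtrl. Replicate 2 was the highest in both groups, and shYthdf2 was higher within each replicate, by 1.61-fold, 1.46-fold and 1.80-fold. The log2 fold change of Sparc was 0.66 (SE 0.33, edgeR adjusted p = 0.314), and with the replicate number as a block it passed (edgeR adjusted p = 0.0450). Over the 15 alternatives, its adjusted p ranged from 8.63e-10 to 0.635, the lowest being without replicate 2, where the log2 fold change was 0.76.

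Sparcl1, the related synapse-promoting protein hevin, had 1730, 1743 and 1720 in shYthdf2 and 736, 1727 and 737 in shCtrl. The replicate 2 libraries were equal at a ratio of 1.01, whereas the other ratios were 2.35 and 2.33. Tnc, the matrix protein tenascin C, had 838, 728 and 884 against 484, 772 and 488. Its log2 fold change was 0.49 (SE 0.20, edgeR adjusted p = 0.232), and the ratio in replicate 2 was 0.943. Clu, the chaperone clusterin, had 370, 279 and 340 against 322, 300 and 267, a small difference with overlap. Cd44, the hyaluronan receptor of astrocyte precursors and reactive astrocytes, had 167, 95.1 and 154 against 163, 301 and 174. Its groups were near equal in replicates 1 and 4, and its log2 fold change of -0.62 (SE 0.31, edgeR adjusted p = 0.320) was -0.07 without replicate 2. Without those libraries, Sparcl1 (1.22) and Tnc (0.82) passed and Clu (0.26) did not (edgeR adjusted p = 3.26e-11, 7.73e-08 and 0.0522).

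The 2 genes of reactive glia had log2 fold changes below 0 over the 6 libraries and differed from each other without replicate 2. Lcn2, the secreted iron-siderophore binder lipocalin 2, had 199, 137 and 237 normalized counts in shYthdf2 and 310, 524 and 322 in shCtrl. It was lower in 3 of 3 replicates without overlap, at ratios of 0.642, 0.261 and 0.735. The log2 fold change of Lcn2 was -1.02 (SE 0.28, edgeR adjusted p = 0.117), the largest downward one among the members. It was -0.54 without replicate 2 (edgeR adjusted p = 0.000784), and the adjusted p was 0.0121 with DESeq2 and ranged from 0.000784 to 0.367 over the 15 alternatives. Serpina3n, a secreted protease inhibitor, had 162, 163 and 146 against 89.7, 397 and 86.9. Its log2 fold change was -0.28 (SE 0.57), and without replicate 2 it was 0.80 (edgeR adjusted p = 0.000419), so the direction turned with those libraries.

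In CPM per kilobase of exon, the levels of the 31 genes in shCtrl ran from 65.3 for Fabp7 through 43.8 for Gfap, 39.2 for Vim, 37.0 for Glul, 32.3 for Sparc and 19.1 for Sparcl1 at the top. At the bottom, Ppp1r3c was at 0.338 and Fgfr3 at 0.485 among the tested genes. In shYthdf2, the level of Fabp7 was 120 and that of Gfap 54.3. Neighbours at the top, such as Gfap, Vim and Glul, were within the spread of the shCtrl libraries of each other. Lcn2 went from rank 11 of the 31 in shCtrl to rank 20 in shYthdf2.

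**Figure D4:**
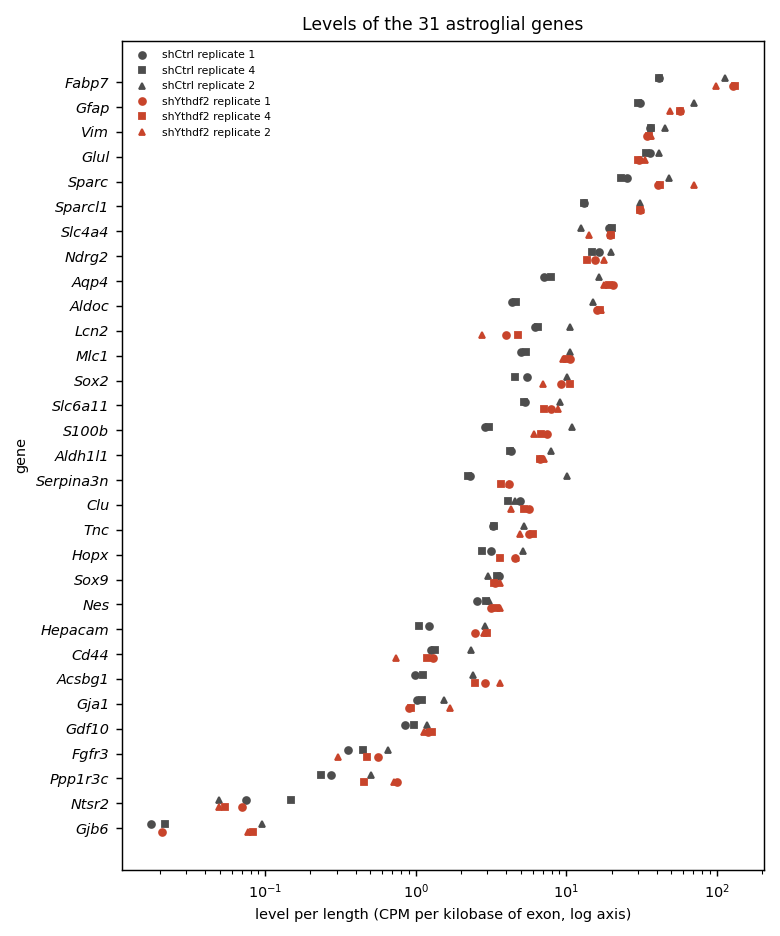
Level per length (CPM per kilobase of exon, log axis) of all 31 genes, ordered by the shCtrl mean, with a point for each library (grey shCtrl, red shYthdf2). The genes span from Fabp7 at a shCtrl mean of 65.3 to Gjb6 and Ntsr2, which are below 0.1.

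The transcripts of the 29 tested members were close to those of other genes in size and composition. Their median length was 2792 bases, against 3245 for the 13719 protein-coding genes tested, and their median GC content was 51.9% against 50.3%. GGACT, the commonest form of the m6A motif, had a median of 1.18 occurrences per kilobase against 1.05, and 0 of the members lacked it, against 6.89% of the genes. A motif is not a measured m6A site, and no m6A data were analysed here.

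Of 46 further astrocyte genes, 42 were tested, 36 had a log2 fold change above 0 and 6 below, and 0 passed in either direction by edgeR's adjusted p (3 higher and 2 lower at an unadjusted p under 0.05, and 2 higher and 1 lower past the adjusted threshold of DESeq2). The shares of all genes are 9.5% and 10.6% at the unadjusted p, 3.13% and 4.54% with DESeq2, and 25.8% and 27.0% without replicate 2, here and for the lists that follow. The median of the list was 0.30, and without replicate 2 it was 0.57, with 25 of the 42 past the threshold as higher and 4 as lower. Apoe, the apolipoprotein E of astrocytes and the highest of the list per length, had a log2 fold change of 0.29 (SE 0.21). Slc39a12, a zinc transporter, had 1.45 (SE 0.41, edgeR adjusted p = 0.124).

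Slc1a2, the glutamate transporter GLT-1, went against most astrocyte genes. It had 934, 1023 and 878 normalized counts in shYthdf2 and 3034, 1576 and 3083 in shCtrl. All shYthdf2 libraries were below all shCtrl libraries, and shCtrl replicate 2 was the lowest of its group, the reverse of Gfap or Aldoc. Slc1a2 had a log2 fold change of -1.44 (SE 0.25, edgeR adjusted p = 0.0552), and it was -1.76 without replicate 2 (edgeR adjusted p = 1.07e-13). The adjusted p was 5.5e-06 with DESeq2, 0.0142 with the term for replicate 2 and 0.00088 without shCtrl replicate 2, and it ranged from 1.07e-13 to 0.286 over the 15 alternatives.

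Of 8 further Bergmann glia genes, 7 were tested, 4 above 0 and 3 below, and 0 passed by edgeR's adjusted p (2 in each direction at an unadjusted p under 0.05, and 1 in each past the adjusted threshold of DESeq2). Without replicate 2, 4 of the 7 passed as higher and 3 as lower. Timp4, an inhibitor of matrix metalloproteinases, had 478, 313 and 498 in shYthdf2 and 285, 225 and 268 in shCtrl (edgeR adjusted p = 0.122). Etv5, an ETS factor downstream of growth factor signalling, had 384, 796 and 393 against 1403, 933 and 1385, without overlap and lower in shYthdf2 (edgeR adjusted p = 0.0998). Without replicate 2, Timp4 was at 0.81 and Etv5 at -1.85 in log2 fold change, and both passed (edgeR adjusted p = 1.21e-06 and 3.78e-12). Gria4, an AMPA receptor subunit that neurons also express, was the highest of this list per length.

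Of 32 genes of a reactive astrocyte panel, 30 were tested, with 14 above 0 and 16 below and a median of -0.17. At an unadjusted p under 0.05, 2 were higher and 5 lower, and DESeq2 passed 0 as higher and 3 as lower. Without replicate 2 the median turned to 0.16 over 29 genes, with 6 past the threshold as higher and 6 as lower. H2-D1, a heavy chain of MHC class I and the highest of the panel per length, fell, from 2406, 2027 and 2341 in shCtrl replicates 1, 2 and 4 to 953, 910 and 995 in shYthdf2. Its log2 fold change was -1.24 (SE 0.10, edgeR adjusted p = 0.0279), and it was the only gene of the 14 lists, the members included, that passed. The adjusted p of H2-D1 ranged from 3.33e-17 to 0.269 over the 15 alternatives, the log2 fold change was -1.29 without replicate 2, and the gene has near-identical relatives among which reads could be split. In the gp130 and Stat3 pathway, through which leukemia inhibitory factor and ciliary neurotrophic factor act on glia, 10 of 14 genes were tested and 0 passed by edgeR's adjusted p (1 in each direction at an unadjusted p under 0.05, and 0 by DESeq2). Without replicate 2, 2 of the 10 passed as higher and 4 as lower. Cntfr, the receptor of ciliary neurotrophic factor and the highest of the list per length, was at -0.60 (SE 0.22), and Lifr, the receptor of leukemia inhibitory factor, was at 0.53 (SE 0.20), both on the log2 fold change scale. Both passed without replicate 2, at -0.22 and 0.76 (edgeR adjusted p = 0.00117 and 3.79e-06).

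Markers of other non-neuronal cells were higher in the same libraries for some lists. The 12 oligodendrocyte lineage markers were all above 0 in log2 fold change, and their summed level was 890, 1175 and 918 CPM in shYthdf2 replicates 1, 2 and 4 and 344, 1193 and 332 CPM in shCtrl. As for the astroglial genes, shCtrl replicates 1 and 4 were low. All 9 tested microglia markers of 11 were above 0, with sums of 81.0, 30.3 and 87.3 CPM against 16.9, 63.5 and 14.5 CPM, so that replicate 2 went in the opposite direction to the others. P2ry12 and Trem2, which define microglia and are named after their values were seen, were below 10 counts in every library.

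The 9 tested vascular markers of 10 and the 8 fibroblast and meningeal markers were also all above 0. Vascular sums ran from 49.0 to 131 CPM in shYthdf2 and from 33.0 to 75.7 CPM in shCtrl, and fibroblast sums ran from 224 to 582 CPM and from 162 to 474 CPM, with replicate 2 the highest in both groups. Ependymal sums ran from 66.0 to 81.2 CPM and from 61.6 to 63.0 CPM. Past the adjusted threshold of edgeR, these 5 lists had 0 genes. At an unadjusted p under 0.05, 1 oligodendrocyte, 1 vascular and 1 fibroblast marker was higher, and DESeq2 passed 1 vascular marker. With the replicate number as a block, 1 vascular marker passed as higher, Vtn, the matrix protein vitronectin, named after its values were seen (edgeR adjusted p = 0.0450 against 0.444 without the block, and 2.54e-06 to 0.890 over the 15 alternatives).

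Without replicate 2, all 12 oligodendrocyte markers (median log2 fold change 1.37) and all 9 tested microglia markers (median 2.62) passed as higher. So did 5 of 9 vascular markers (median 0.43), 4 of 8 fibroblast markers (median 0.66) and 1 of 6 ependymal markers (median 0.09), and 0 of these lists' genes passed as lower. The astroglial median in the same fit was 0.65. The part of these cells in the astroglial differences was not tested.

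The sums of GC markers overlapped between the groups. These markers (16 of 16 tested) had a median log2 fold change of 0.05 (0.06 without replicate 2, with 7 past the threshold as higher and 5 as lower), with sums of 12941 to 13575 CPM in shYthdf2 and 13226 to 13880 CPM in shCtrl. At an unadjusted p under 0.05, 1 GC marker was higher and 4 were lower, against 9.5% and 10.6% of all genes. DESeq2 passed 1 as higher and 2 as lower, against 3.13% and 4.54%. Sums of GABAergic interneuron markers were 503 to 581 CPM against 436 to 455 CPM, and 6 of 7 were above 0, with a median of 0.12 (0.21 without replicate 2). At the unadjusted p and with DESeq2, 1 of these markers was higher and 0 lower. Without replicate 2, 4 passed as higher and 1 as lower. With the replicate block, 1 of them passed as higher, Gad1, the GABA-synthesizing enzyme, named after its values were seen (edgeR adjusted p = 0.0450 against 0.0876 without the block, and 2.91e-08 to 0.361 over the 15 alternatives). Sums of Purkinje cell markers were 46.8 to 68.0 CPM against 55.1 to 58.9 CPM, and 2 of 7 were above 0, with a median of -0.18 (-0.47 without replicate 2). Of these 7, 1 was higher and 0 lower at the unadjusted p and with DESeq2. Without replicate 2, 2 passed as higher and 1 as lower.

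Cycling progenitor markers had lower sums in shYthdf2, 443 to 468 CPM against 573 to 680 CPM, although 5 of the 8 tested were above 0, with a median of 0.41 (0.45 without replicate 2, with 3 past the threshold in each direction). At an unadjusted p under 0.05, 0 of these markers were higher and 1 was lower, and DESeq2 passed 0 as higher and 1 as lower. The sum was mostly Barhl1, a factor of the granule cell lineage, with 6680 ± 89.9 normalized counts against 10190 ± 1377 (SD, n = 3).

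**Figure D5:**
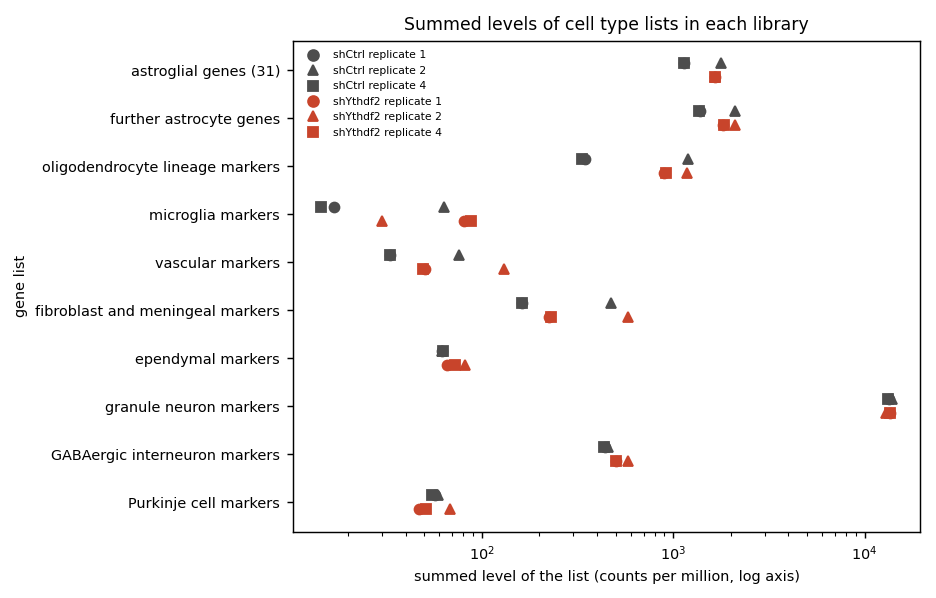
Summed level (CPM, log axis) of the 31 astroglial genes and of 9 other gene lists in each library (grey shCtrl, red shYthdf2, with a symbol for each replicate). For astroglial genes and oligodendrocyte markers, shCtrl replicates 1 and 4 lie to the left of the other 4 libraries, while the GC marker sums lie between 12941 and 13880 CPM.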

How the data were processed

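The authors filtered out adapter-containing and poor reads, aligned those left to GRCm38 with HISAT 2.0.4 and TopHat2 2.1.1 and counted reads per gene with HTSeq 0.9.1. The submitters' processing notes also name mm9 and Bowtie 0.12.2. The values the authors deposited are raw counts without normalization, 1 column per library. Of 53421 genes, 52489 were matched to GENCODE M21 (GRCm38), which gave symbols, exon lengths and overlaps.

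Libraries were grouped by their names and hairpin numbers. Genes were kept by filterByExpr (minimum count 10, minimum total 15), which removed 36207 and kept 99.8% of the counts. Differences (shYthdf2 minus shCtrl) were fitted on all 17214 remaining genes with edgeR 4.0.16 in R 4.3.3 (TMM, quasi-likelihood test, two-sided), with Benjamini-Hochberg adjustment over all of them and a threshold of 0.05. For Aqp4 and the other members without overlap, the p of an exact two-sided permutation test of the normalized counts is also given. Log2 differences within a replicate used the normalized count plus 1. Level per length is CPM, with TMM library sizes, per kilobase of exon. The code was tested on simulated data. Upstream sequences were from RefSeq (GRCm38.p6). Figures were made in matplotlib 3.10.9.

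Each library had 17246821 to 21546595 counts, and SDs cover counting error and differences between libraries. The methods call the 3 libraries of a group biological replicates, and the labels do not name the cultures. Deviations from the group means correlated at 0.25, 0.361 and 0.305 between libraries of the same number 1, 2 and 4. Between numbers 1 and 4 they correlated at 0.147 and 0.123, and where replicate 2 met another number at -0.314 to -0.248. The deviations of a gene sum to 0 within a group, so values below 0 between numbers follow in part from the centering. Whether the numbers pair the libraries of replicates 1 and 4 was not tested. Alternatives were RLE size factors, library size only, 2 filters, DESeq2 1.42.0, limma-voom 3.58.1, the replicate block, a term for replicate 2, each library left out, and replicate 2 left out.

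The members, lists, tests and alternatives were chosen with earlier results of these data known. All members are named, and of the astrocyte, Bergmann glia, reactive and gp130 lists the genes past the threshold, or if none the 2 with the smallest unadjusted p, and the highest gene per length. Genes that the rule names in the cell type lists are given within the sums of their lists.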

Additional observations from a re-analysis of the deposited data

How the results depend on the processing

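Over 15 alternatives, 415 of 435 fits of a member kept their direction, and 6 members turned in at least 1. Without replicate 2, Slc4a4 was at -0.01, Sox9 at -0.0857, Fgfr3 at 0.39 and Serpina3n at 0.80 (log2 fold change). Serpina3n was at 0.0645 with a term for replicate 2, 0.10 with limma-voom and 0.0780 with the replicate block. With 1 library or replicate 2 left out, Gja1 ran from -0.41 to 0.15, Slc4a4 from -0.14 to 0.19, Sox9 from -0.0857 to 0.0830, Fgfr3 from -0.31 to 0.39, S100b from -0.0565 to 1.26 and Serpina3n from -0.63 to 0.83.

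Past the adjusted threshold, all genes numbered 104, and 1320 with DESeq2, 3799 with the term for replicate 2, 24 with limma-voom, 639 without a filter, 232 with the replicate block, 9186 without replicate 2 and 0 to 3239 with 1 library left out. Members past it as higher numbered 0, and 1 with DESeq2, 4 with the term, 1 with the block (Sparc), 19 without replicate 2 and 0 to 16 with 1 library left out. Those lower numbered 0, and 1 with DESeq2, the term and no filter (Lcn2 in the last), and 2 without replicate 2. At an unadjusted p under 0.05, 3 were higher, and 7 with DESeq2, 5 with at least 10 counts in every library, 12 with the term, 7 with library size only, 8 with limma-voom and with no filter, 9 with the replicate block, 20 without replicate 2 and 0 to 18 with 1 library left out. Lower there was 1, and 2 with the term, no filter, the block and without replicate 2, and 1 to 2 with 1 library left out.

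Groups did not overlap for 4 higher members (12.6% of all genes), 2 with no filter (8.46%), 21 without replicate 2 (37.8%) and 4 to 19 with 1 library left out (14.3% to 27.1%). They did not overlap for 2 lower members (13.4%), 1 with no filter (8.71%), 5 without replicate 2 (38.2%) and 2 to 4 with 1 library left out (14.8% to 26.7%). The 19 higher members came without shCtrl replicate 2 (27.1% of all genes), and leaving out shYthdf2 replicate 2 gave 8 (24.2%). Leaving out any other single library gave 4 or 5. Non-overlap is easier with fewer libraries, and why the counts differ was not tested. Beyond Sparc among the members and Vtn and Gad1 in the cell type lists, the replicate block changed no call of a listed gene. The median log2 fold change stayed between 0.15 and 0.68 with 1 library left out. Counts under about 10 (Gjb6, Ntsr2) cannot show a difference at this depth.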
